A study of Mus musculus with 2 samples.

Results

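Cacna2d1, Cacna2d2 and Cacna2d3 encode the alpha2delta subunits of voltage-gated calcium channels, and they were followed here through the cells of the embryonic mouse forebrain. The 3 genes were found by their symbols in the count matrices, among 32285 annotated genes, and all 3 were counted in both libraries. They were chosen by name with their levels over these cells and libraries already known, so those levels are given as a description and no test is attached to them. The study sequenced droplet-captured single cells from E18.5 (embryonic day 18.5) forebrain in 2 libraries, one labelled Cyfip2 knockout and one labelled wild type. The Cyfip2 protein belongs to the WAVE complex, through which the small GTPase Rac drives the branching of actin. Each library pooled 2 forebrains of 1 genotype after papain dissociation. The labels do not give the sex of the embryos, the strain, or whether the knockout allele is deleted throughout the body. With 1 library per genotype there is no replicate, so a difference between the libraries cannot be told apart from a difference between the pooled animals or the captures, and every interval below covers counting error only.

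Alpha2delta proteins are extracellular, membrane-anchored subunits that sit beside the pore of high voltage-activated calcium channels. They help carry the channels to the cell surface and to presynaptic terminals, and they bind partners outside the cell, among them thrombospondins. In the brain they are known for their roles in transmitter release and synapse formation, and the products of Cacna2d1 and Cacna2d2 are the binding sites of gabapentin and pregabalin.

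After filtering, 11533 cells of the knockout-labelled library and 8426 cells of the wild-type library remained, with medians of 7816 and 9572.5 UMIs (unique molecular identifiers, each marking 1 captured transcript) per cell. Levels are given as CPM, the UMIs of a gene scaled to the total UMIs of all genes in a class of cells. Class names rest on marker genes, so "interneurons" below stands for interneuron-like cells and likewise for the other names. The knockout-labelled cells held 5994 excitatory neurons (52.0%), 3612 GABAergic neurons (31.3%) and 1177 progenitors (10.2%), and the wild-type cells held 4813 (57.1%), 2080 (24.7%) and 1040 (12.3%). Cyfip2 itself was counted at 84.4 CPM in the library labelled Cyfip2 knockout and at 84.9 CPM in the wild-type library. By family it was at 92.5 and 103 CPM in excitatory neurons, 78.4 and 85.8 CPM in GABAergic neurons and 63.4 and 36.8 CPM in progenitors, with 56.2 and 22.8 CPM in radial glia, 74.7 and 103 CPM in MGE interneurons (defined below) and 123 and 11.8 CPM in vascular cells. The Cyfip2 counts therefore do not show the loss that the label names, and in several classes they run against it. Whether the counted tags lie outside the deleted part is not given in the sources used here, and every direction below is one between libraries as labelled. Of the called barcodes, 32 were shared by both libraries, and without them every log2 ratio of a member given below for a family or class stayed inside its interval. Free RNA was estimated at 5.17% and 5.84% of the UMIs of a cell in the knockout-labelled and wild-type libraries. From this share, free RNA would give 4.17 and 5.10 CPM of Cacna2d1. For Cacna2d2 it would give 1.63 and 1.26 CPM, and for Cacna2d3 0.734 and 1.06 CPM. A class near these levels cannot be told apart from free RNA. The share was taken from neuronal markers in microglia and macrophages and can be too high for other cells. In wild-type cells of cluster 18, an MGE cluster described below, Cacna2d1 was at 1.44 CPM, under that estimate.

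The 3 genes differ in size and lie on different chromosomes. In GENCODE coordinates on GRCm38, Cacna2d1 (ENSMUSG00000040118) spans chr5:15934691-16374511 on the plus strand, Cacna2d2 (ENSMUSG00000010066) spans chr9:107399612-107529343 on the plus strand, and Cacna2d3 (ENSMUSG00000021991) spans chr14:28904943-29721864 on the minus strand. These spans are 439.8, 129.7 and 816.9 kb long. Genes on the opposite strand lie inside all 3: antisense Gm43000 in Cacna2d1 had 164 and 170 UMIs in the knockout-labelled and wild-type cells, and the protein-coding gene Lrtm1 in Cacna2d3 had 147 and 134 UMIs. Whether the counting used the strand is not given in the sources used here, so reads of such pairs may not be fully separated. The 250 bases before the RefSeq start of Cacna2d1 (chr5:15934441-15934690, plus strand) and of Cacna2d3 (chr14:29721865-29722114, minus strand) are printed in reading direction because they hold the most GC boxes of the 3 windows, in genes with a different spread over cell classes. RefSeq sequences on GRCm38.p6 matched all 3 genes. Capitals mark the GC box, the letters CCGCCC on either strand.
Cacna2d1: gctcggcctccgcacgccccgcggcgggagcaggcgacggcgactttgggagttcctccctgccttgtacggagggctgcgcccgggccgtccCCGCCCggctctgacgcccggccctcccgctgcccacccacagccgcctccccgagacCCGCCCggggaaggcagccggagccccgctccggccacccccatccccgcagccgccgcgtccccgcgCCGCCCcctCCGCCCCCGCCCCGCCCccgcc
Cacna2d3: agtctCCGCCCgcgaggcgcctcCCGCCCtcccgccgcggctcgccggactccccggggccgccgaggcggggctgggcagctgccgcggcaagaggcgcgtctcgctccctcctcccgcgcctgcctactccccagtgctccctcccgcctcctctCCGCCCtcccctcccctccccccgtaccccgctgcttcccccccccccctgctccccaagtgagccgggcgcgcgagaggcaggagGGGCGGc
The windows of Cacna2d1, Cacna2d2 and Cacna2d3 were 82.4%, 74.4% and 80.0% G or C, against a median of 52.4% over 32851 annotated promoters of that length. They held 6, 1 and 4 GC boxes, and 32.7% of all these windows hold at least 1. The E-box letters CANNTG occurred 0, 0 and 2 times and are present in 66.2% of windows. All motifs were searched on both strands. None of the 3 windows holds TATAAA, present in 12.4% of windows, or the homeodomain core TAATTA, present in 4.84%. These matches describe letters and not binding sites. The window of Cacna2d2 (chr9:107399630-107399879) is taken from a RefSeq start 268 bases downstream of the GENCODE start. It therefore lies inside the GENCODE span of the gene, whereas the windows of Cacna2d1 and Cacna2d3 lie outside theirs.

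Across the forebrain the 3 genes were spread differently over the neurons, with Cajal-Retzius cells high in all 3. Cacna2d1 was spread over the excitatory lineage, Cacna2d2 was concentrated in Cajal-Retzius cells and in interneurons of the medial ganglionic eminence (MGE), and Cacna2d3 was highest in striatal projection neurons, in interneurons with markers of the caudal or lateral eminence (CGE or LGE) and in Cajal-Retzius cells. Excitatory neurons held 88.3% of the Cacna2d1 UMIs of the knockout-labelled cells and 89.5% of those of the wild-type cells. GABAergic neurons held 51.2% and 49.2% of the Cacna2d2 UMIs, and Cajal-Retzius cells, which made up 0.503% and 0.415% of the cells, held another 28.0% and 28.7%. Cacna2d3 was split, with 53.2% and 35.5% of its UMIs in GABAergic neurons and 41.1% and 55.0% in excitatory neurons. The clusters were built from all variable genes, so the order of the classes is a description. How well each transcript is captured can differ between genes, so a gene is compared between classes and not with another gene. The fourth gene of the family, Cacna2d4, had 3 and 7 UMIs in all knockout-labelled and wild-type cells.

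**Figure D1:**
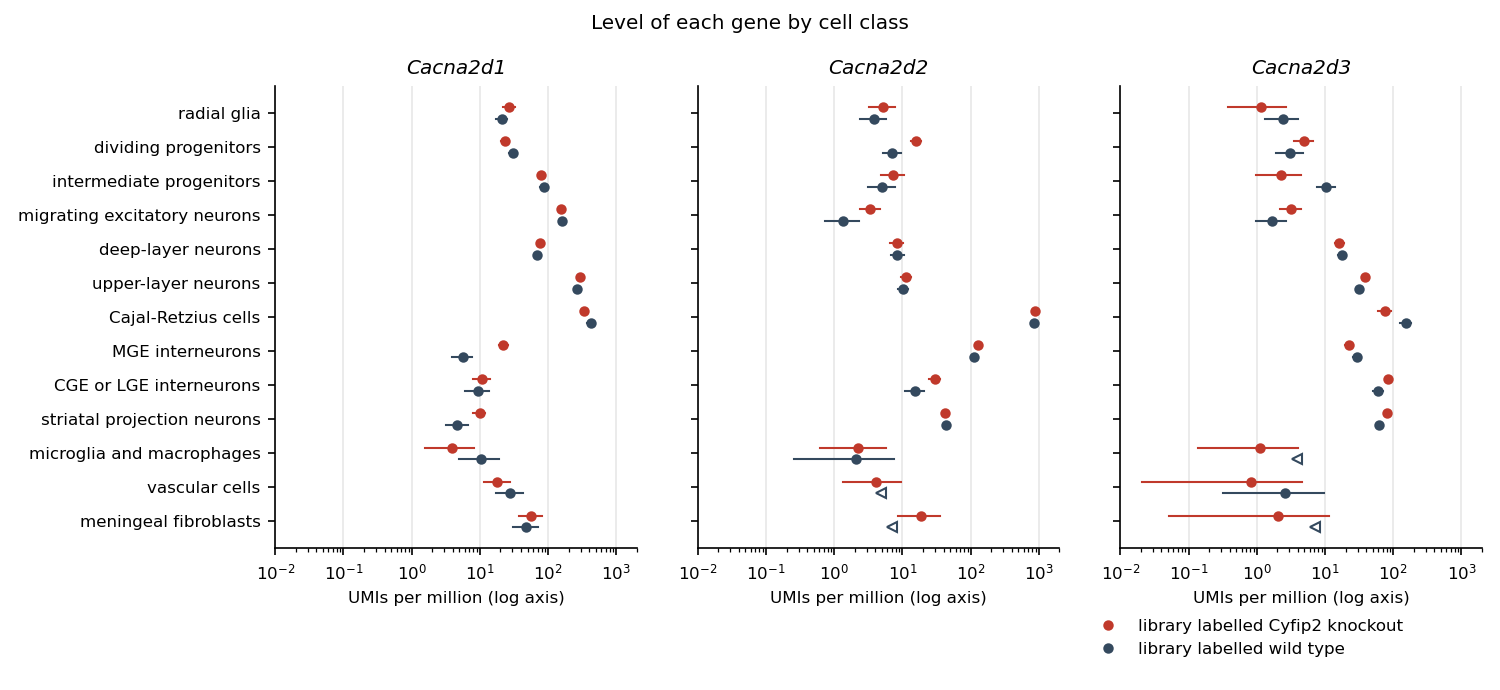
Level of each alpha2delta gene (CPM, log axis) by cell class, with the library labelled Cyfip2 knockout above the library labelled wild type, and bars giving exact 95% Poisson intervals (counting error only). Open triangles mark the upper limit where no UMI was counted. Cacna2d1 is high in migrating and upper-layer excitatory neurons and lower in deep-layer ones. Cacna2d2 stands highest in Cajal-Retzius cells at 865 and 839 CPM.

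Cacna2d1, the subunit best known as the gabapentin target and a thrombospondin receptor, was at 171 CPM (168 to 174, exact 95% Poisson interval) in knockout-labelled excitatory neurons and at 166 CPM (162 to 169) in wild-type ones. It was carried by 68.2% of knockout-labelled and 71.5% of wild-type excitatory neurons. With every cell thinned to 1000 UMIs, to remove the difference in depth, these shares were 17.9% and 17.6%. In microglia and macrophages, which should lack a neuronal channel subunit, 3.68% and 6.35% of cells carried a UMI without thinning, at medians of 12838 and 15119 UMIs per cell.

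From radial glia through the excitatory classes, Cacna2d1 was lowest in radial glia and highest in upper-layer neurons. Radial glia, the neural stem cells, had 26.8 and 20.9 CPM in the knockout-labelled and wild-type libraries, in a cluster led by the transthyretin gene Ttr, which the choroid plexus makes in large amounts. Intermediate progenitors, marked by Eomes, had 79.2 and 85.9 CPM, and migrating excitatory neurons had 152 and 162 CPM. The migrating class is mixed, with 118 and 131 CPM in the Sstr2 and Unc5d cluster and 276 and 278 CPM in the Carmil3 and Unc5d cluster. Upper-layer neurons reached 293 CPM (283 to 303) in the knockout-labelled library and 266 CPM (257 to 275) in the wild-type library. Deep-layer neurons had 76.1 and 69.7 CPM, below the upper-layer and the migrating neurons in each library, with intervals that do not overlap. They did not exceed intermediate progenitors, whose interval overlaps theirs in the knockout-labelled library and lies above it in the wild-type library. Inside the deep-layer class, the Fezf2 and Adcyap1 cluster had 88.1 and 80.5 CPM and the Tle4 and Hs3st4 cluster had 36.0 and 35.2 CPM.

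Cajal-Retzius cells, the early Reln-positive neurons of the cortical surface, had the highest Cacna2d1 level of the 20 classes and unnamed clusters in each library, with 341 CPM (307 to 378) in 58 knockout-labelled cells and 421 CPM (374 to 472) in 35 wild-type cells. Upper-layer neurons came next in both. The neighbours below them, which are clusters 8, 3, 17 and 21 of the excitatory family and the migrating neurons, had 136 to 166 CPM in the knockout-labelled library and 132 to 171 CPM in the wild-type library, and neighbours in this order have overlapping intervals. At the low end, Cacna2d1 had 9.88 and 4.69 CPM in striatal projection neurons and 10.7 and 9.26 CPM in CGE or LGE interneurons, against 4.17 and 5.10 CPM from free RNA. The wild-type striatal interval (3.16 to 6.70) holds the free-RNA level, and the other intervals lie above it.

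Cacna2d2, whose loss causes ataxia and seizures in ducky mice, was at 865 CPM (811 to 923) in knockout-labelled Cajal-Retzius cells and at 839 CPM (773 to 910) in wild-type ones. At least 1 UMI was found in 54 of 58 knockout-labelled and in 35 of 35 wild-type Cajal-Retzius cells. A cell with the transcript held a median of 16.5 and 13 UMIs. The intervals of both libraries overlap, and the log2 ratio was 0.04 (-0.11 to 0.20), where positive values mean higher in the knockout-labelled library, here and below.

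MGE interneurons followed, at 130 CPM (122 to 137) in the knockout-labelled library and 111 CPM (103 to 120) in the wild-type library, with the transcript in 40.6% and 37.9% of cells. They fall into cluster 2, led by Sst, Zic4, Zic1 and Lhx8, and cluster 18, led by Lhx6, Maf and Nxph1. The 10 leading genes of cluster 2 hold 3 of the 8 MGE markers but neither Lhx6 nor Maf, and Zic1, Zic4 and Lhx8 are also known from septal and other ventral forebrain neurons, so its place in the class is less sure. Cluster 2 had 180 and 217 CPM of Cacna2d2 and cluster 18 had 97.6 and 84.1 CPM. Striatal projection neurons had 42.5 and 43.8 CPM, and here the Penk and Drd2 cluster stood above the others at 78.9 and 78.8 CPM, against 34.4 and 26.2 CPM in the Isl1 and Zfp503 cluster and 13.8 and 19.3 CPM in the Ebf1 and Tac1 cluster. Excitatory neurons as a family had 6.82 and 5.33 CPM.

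Cacna2d3, the subunit with roles in hearing and pain sensing in mice, was at 84.6 CPM (76.3 to 93.5) in knockout-labelled CGE or LGE interneurons and at 60.0 CPM (51.1 to 70.0) in wild-type ones. Striatal projection neurons had 81.0 CPM (75.6 to 86.8) and 62.1 CPM (56.1 to 68.5). Cajal-Retzius cells had 75.4 CPM (60.0 to 93.6) and 153 CPM (125 to 185). In the knockout-labelled library the intervals of these 3 classes overlap, whereas in the wild-type library Cajal-Retzius cells stood above the other two and those overlap.

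Upper-layer neurons had 38.1 and 31.7 CPM of Cacna2d3, deep-layer neurons had 16.2 and 17.9 CPM, and migrating neurons had 3.19 and 1.65 CPM. Migrating neurons were thus low in Cacna2d3 and high in Cacna2d1. Within the CGE or LGE class, the Adarb2 and Htr3a cluster had 125 and 92.9 CPM and the Pbx3 and Tshz1 cluster had 73.0 and 46.8 CPM. Within the striatal class, the Isl1 and Zfp503 cluster had 131 and 86.2 CPM, the Penk and Drd2 cluster 87.1 and 71.9 CPM, and the Ebf1 and Tac1 cluster 25.9 and 40.2 CPM.

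The make-up of the pooled alpha2delta UMIs differed by class, though some classes shared the gene with the largest part. Of these UMIs, Cacna2d1 took 95.9% and 98.2% in knockout-labelled and wild-type migrating neurons, 85.6% and 86.4% in upper-layer neurons, and 75.7% and 72.5% in deep-layer neurons. Cacna2d2 took 74.5% and 76.0% in MGE interneurons and 67.5% and 59.4% in Cajal-Retzius cells. Cacna2d3 took 67.7% and 71.1% in CGE or LGE interneurons and 60.7% and 56.2% in striatal projection neurons. These shares count captured transcripts, not protein. Capture can differ between genes, so the shares are compared between classes.

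**Figure D2:**
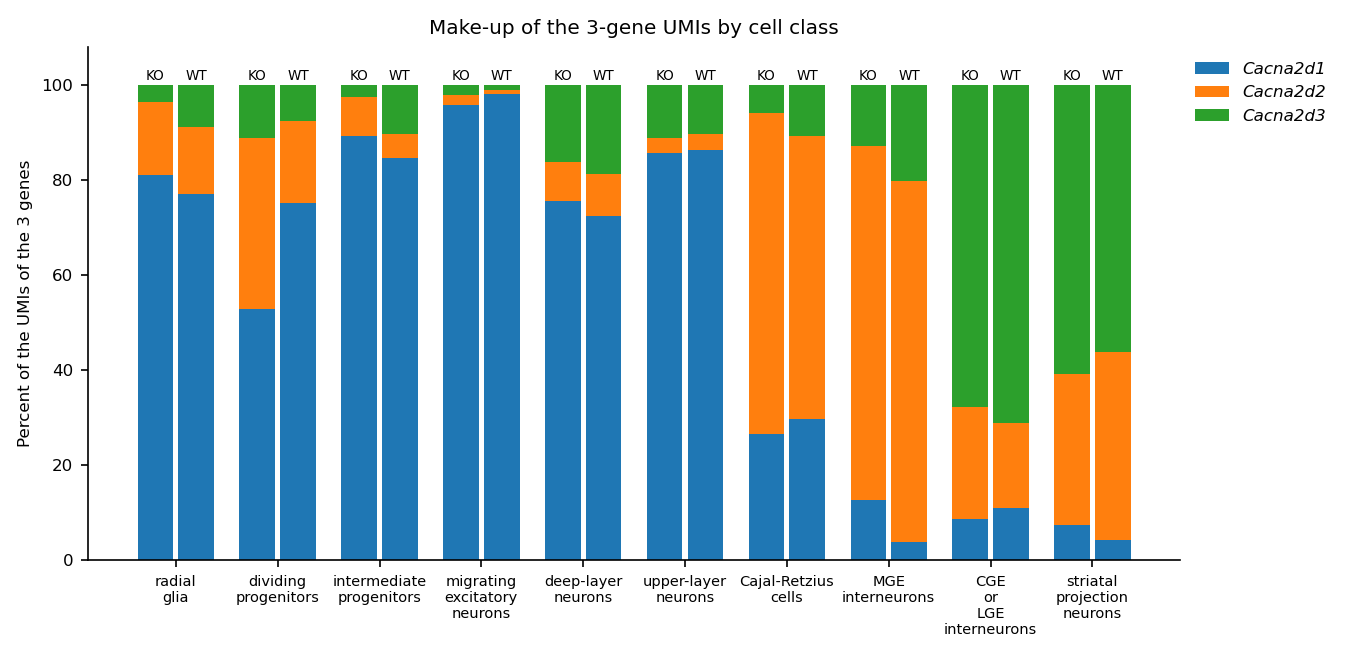
Share of the summed alpha2delta UMIs (%) that each of the 3 genes took, by cell class, with the library labelled Cyfip2 knockout left of the library labelled wild type. Excitatory classes are mostly Cacna2d1, MGE interneurons are mostly Cacna2d2 at 74.5% and 76.0%, and CGE or LGE interneurons are mostly Cacna2d3 at 67.7% and 71.1%.

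Cajal-Retzius cells were the class in which all 3 genes were often found in the same cell, in 30 of 58 knockout-labelled cells (51.7%) and 23 of 35 wild-type cells (65.7%). Over all cells this held for 103 cells (0.893%) and 85 cells (1.01%). Their depth, with medians of 16846.5 and 17142 UMIs, was about that of deep-layer neurons (15093.5 and 18142.5 UMIs). In upper-layer neurons 22.2% and 21.4% of cells carried both Cacna2d1 and Cacna2d3. None of the 3 genes was detected in 43.5% of knockout-labelled and 40.4% of wild-type cells, which at these depths does not show that the genes are absent.

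The genes whose level ran most like each member over the 24 clusters with at least 50 cells in each library, ranked among 10838 genes by Pearson correlation of log2(CPM + 10) over 48 cluster levels, also differed. For Cacna2d1 they were Ptprk (r = 0.92), Zbtb18 (0.92), Neurod2 (0.90), Ttc28 (0.90) and Prdm8 (0.89). For Cacna2d2 they were Calb1 (0.87), Tox2 (0.82), Fam222a (0.82), Ryr2 (0.79) and Nrsn2 (0.79). For Cacna2d3 they were Sntg1 (0.82), B930095G15Rik (0.78), Pnmal2 (0.77), Tmem200a (0.77) and Enox1 (0.77). Between the members, r was -0.49 for Cacna2d1 and Cacna2d2, -0.27 for Cacna2d1 and Cacna2d3, and 0.46 for Cacna2d2 and Cacna2d3. The points share their library and its depth, so these values are descriptions and carry no p. The Cajal-Retzius cluster, with 35 wild-type cells, was below the minimum of 50 and was left out. The correlations and gene ranks thus do not cover the cluster in which Cacna2d1 and Cacna2d2 were both high.

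**Figure D3:**
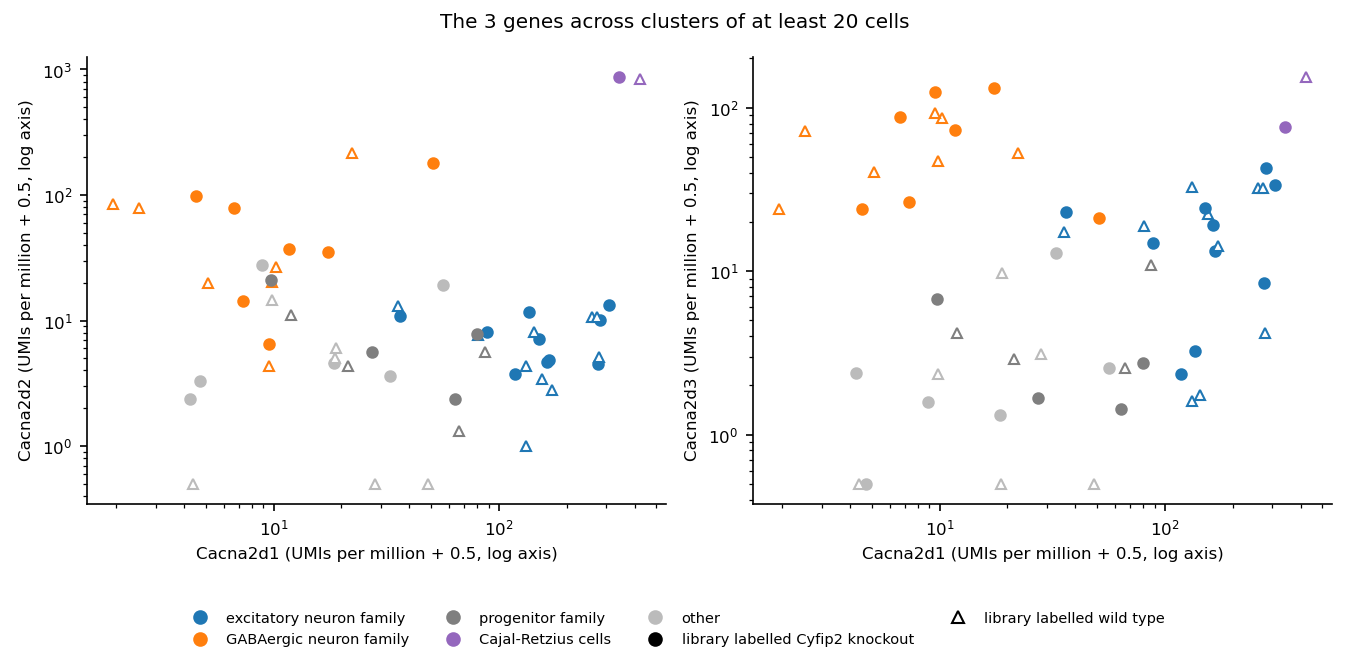
Cacna2d1 level (CPM + 0.5, log axis) against Cacna2d2 and against Cacna2d3 in every cluster with at least 20 cells, with filled circles for the library labelled Cyfip2 knockout and open triangles for the library labelled wild type. Clusters with high Cacna2d1 mostly have low Cacna2d2, and the Cajal-Retzius cluster is the one high on both axes.

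The comparison of the libraries asked whether any alpha2delta gene was at another level in the knockout-labelled cells. A gene was called higher or lower when the log2 ratio was at least 0.58 in size (1.5-fold), its exact 95% interval left out 0 and the gene was measured. Measured genes reached 20 CPM in at least 1 library and 100 UMIs over the pair of libraries. This is a rule of size, not a test. In all cells, Cacna2d1 had 109 CPM in the knockout-labelled library and 113 CPM in the wild-type library, a log2 ratio of -0.05 (-0.09 to -0.01). Cacna2d2 had 30.7 and 20.8 CPM, a log2 ratio of 0.56 (0.48 to 0.64), and Cacna2d3 had 24.0 and 21.4 CPM, a log2 ratio of 0.17 (0.08 to 0.25). None of the 3 was called, where 0.442% of 7020 measured genes were called higher and 0.128% lower. With each cluster of at least 20 cells per library given the same weight, the log2 ratio of Cacna2d2 was 0.09. That value weights the Cajal-Retzius cluster, at 865 and 839 CPM of Cacna2d2, like any larger cluster. GABAergic neurons, the main source of Cacna2d2, were 31.3% and 24.7% of the cells. The part of cell make-up in the ratio was not tested.

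No member was called in a whole family either. In excitatory neurons the log2 ratio was 0.05 (0.01 to 0.09) for Cacna2d1, and 0.162% of 6772 measured genes were called higher there and 0.0738% lower. In GABAergic neurons it was 0.16 (0.04 to 0.27) for Cacna2d2 and 0.29 (0.16 to 0.42) for Cacna2d3, and 0.468% of 6833 measured genes were called higher and 0.132% lower. In progenitors it was -0.17 (-0.33 to -0.01) for Cacna2d1, and 0.929% of 6886 measured genes were called either way. The other family levels were too low to be called. Among them, Cacna2d2 in progenitors had 11.1 and 5.45 CPM, a log2 ratio of 1.02 (0.65 to 1.40).

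Another of those low levels was Cacna2d1 in GABAergic neurons. It had 346 UMIs (14.7 CPM) in the knockout-labelled library and 89 UMIs (5.86 CPM) in the wild-type library. The log2 ratio was 1.33 (0.99 to 1.68). The wild-type level is close to the 5.10 CPM estimated from free RNA alone. Of the UMIs in knockout-labelled GABAergic neurons, 100 lay in striatal projection neurons, which had 30 in the wild-type library. Their log2 ratio was 1.08 (0.47 to 1.72), from levels below the minimum. Another 198 lay in MGE interneurons, which had 34 in the wild-type library. MGE interneurons thus had 22.1 CPM (19.2 to 25.5) and 5.57 CPM (3.86 to 7.79). The intervals do not overlap. The log2 ratio was 1.99 (1.46 to 2.56), called higher in the knockout-labelled library where 1.5% of 6935 measured genes were called higher. The wild-type interval holds the 5.10 CPM estimated from free RNA, so the wild-type level cannot be told apart from that estimate. The call depends on how doublets (droplets with 2 cells) are treated, since with no doublets left out the counts were 517 and 274 UMIs and the log2 ratio was 0.36. All 8 excitatory markers were also higher in the knockout-labelled MGE interneurons, with summed levels of 106 and 66.4 CPM and none of them at 0 in either library. Their part in the result was not tested.

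The Cacna2d1 UMIs of the MGE class came mostly from cluster 2, the one whose place in the class is less sure, which made up 373 of 1185 knockout-labelled and 139 of 797 wild-type MGE interneurons. It had 176 UMIs (50.6 CPM) in the knockout-labelled library and 27 UMIs (21.8 CPM) in the wild-type library, a log2 ratio of 1.21 (0.62 to 1.86), called higher beside 2.25% of 6697 measured genes. Similar shares of its cells carried the transcript, 38 of 373 (10.2%) and 13 of 139 (9.35%). The cells that carried it differed, with a median of 4 UMIs and up to 16 in the knockout-labelled library and a median of 1 and up to 7 in the wild-type library. Without the 5 cells richest in Cacna2d1, the levels were 34.7 and 6.86 CPM. These 5 cells are a larger part of the 13 wild-type carriers than of the 38 knockout-labelled ones, so the libraries are not trimmed alike. Excitatory markers summed to 142 and 111 CPM in this cluster and Cajal-Retzius markers to 226 and 217 CPM, with 6 of 8 and 4 of 7 of them higher in the knockout-labelled library. At most 1 marker of each list was at 0. Their part in the result was not tested. Cluster 18, the larger cluster of the class, had 4.03 and 1.44 CPM from 22 and 7 UMIs. These levels lie below the free-RNA estimates of 4.17 and 5.10 CPM.

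In the same cluster 2, Cacna2d3 was lower, with 20.7 CPM (16.2 to 26.1) in the knockout-labelled library and 52.5 CPM (40.5 to 67.0) in the wild-type library. The log2 ratio of -1.34 (-1.85 to -0.84) was called lower beside 3.18% of measured genes. Few cells set the wild-type value, since 1 cell held 16 of the 65 UMIs. Without the 5 richest cells of each library the levels were 14.3 and 18.0 CPM. The transcript was found in 46 knockout-labelled and 20 wild-type cells, so here too the libraries are not trimmed alike. Cluster 18 had 23.4 and 23.6 CPM of Cacna2d3, and the whole MGE class 22.4 and 29.5 CPM.

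**Figure D4:**
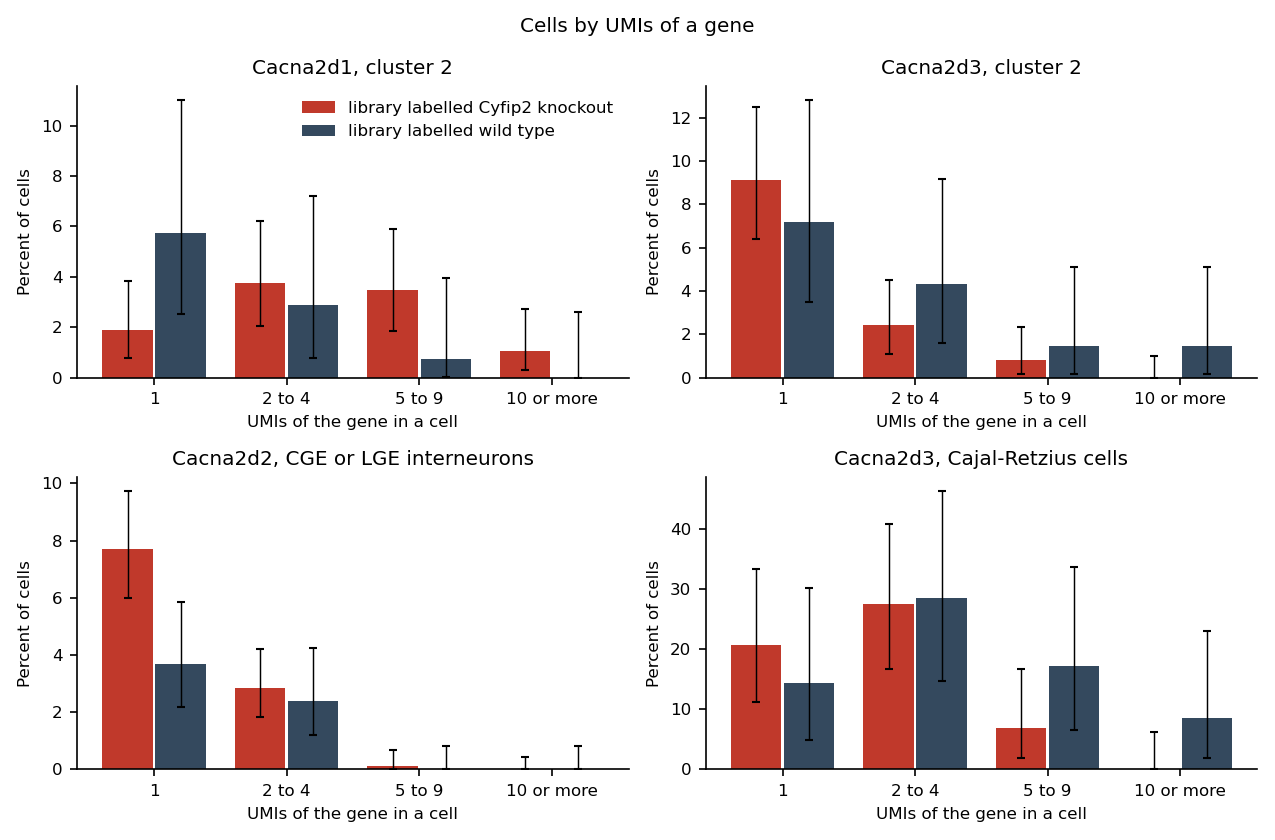
Share of cells (%) with 1, 2 to 4, 5 to 9 and 10 or more UMIs of a gene, for Cacna2d1 and Cacna2d3 in MGE cluster 2, Cacna2d2 in CGE or LGE interneurons and Cacna2d3 in Cajal-Retzius cells, with the library labelled Cyfip2 knockout left of the library labelled wild type and exact 95% binomial intervals. In cluster 2, 17 of 373 knockout-labelled cells and 1 of 139 wild-type cells held 5 or more Cacna2d1 UMIs.

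Cacna2d2 was called higher in knockout-labelled CGE or LGE interneurons, at 29.7 CPM (24.9 to 35.2), against 15.2 CPM (10.9 to 20.6) in wild-type ones. These levels rest on 133 and 41 UMIs, found in 90 of 843 and 28 of 461 cells. The log2 ratio was 0.97 (0.45 to 1.51), and 1.09% of 6882 measured genes were called higher in this class. It lay between 0.63 and 1.65 under 12 other settings. Thinned to 1000 UMIs, 2.97% of knockout-labelled and 1.30% of wild-type cells carried the transcript, with overlapping binomial intervals (1.93% to 4.35% and 0.479% to 2.81%). MGE markers summed to 275 and 325 CPM in this class and excitatory markers to 115 and 68.9 CPM, with 4 of 8 and 6 of 8 of them higher in the knockout-labelled library. None of these markers was at 0, and their part in the result was not tested.

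Most of that Cacna2d2 signal sat in cluster 15, led by Pbx3 and Tshz1, with 36.5 and 19.8 CPM, and little in cluster 23, led by Adarb2 and Htr3a, with 5.99 and 3.87 CPM. Cluster 15 was called higher for Cacna2d2, with a log2 ratio of 0.89 (0.35 to 1.45), and for Cacna2d3, with 0.64 (0.29 to 1.01), beside 2.16% of 6710 measured genes. For Cacna2d3 in the whole CGE or LGE class the log2 ratio was 0.49 (0.23 to 0.77), below the size of a call.

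Cajal-Retzius cells carried the one member called lower in a class. Cacna2d3 had 82 UMIs (75.4 CPM) in the knockout-labelled library and 106 UMIs (153 CPM) in the wild-type library, a log2 ratio of -1.02 (-1.45 to -0.59), where 3.07% of 3484 measured genes were called lower. It was found in 32 of 58 and 24 of 35 cells, with at least 5 UMIs in 4 and 9 cells and at least 10 in 0 and 3 cells. Without the 5 richest cells of each library, a larger part of the 24 than of the 32 cells, the levels were 53.4 and 105 CPM. The other settings gave -1.03 to -0.86. Cacna2d1 had a log2 ratio of -0.30 (-0.53 to -0.08) in the same cells, and Cacna2d2 one of 0.04. The 7 Cajal-Retzius markers summed to 8757 and 9906 CPM, with 2 of 7 higher in the knockout-labelled library and none at 0, and their part in the result was not tested. Below the minimum level, Cacna2d3 in intermediate progenitors had 8 and 43 UMIs, a log2 ratio of -2.21 (-3.51 to -1.11). That ratio ran from -2.64 to 0.05 over the settings.

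**Figure D5:**
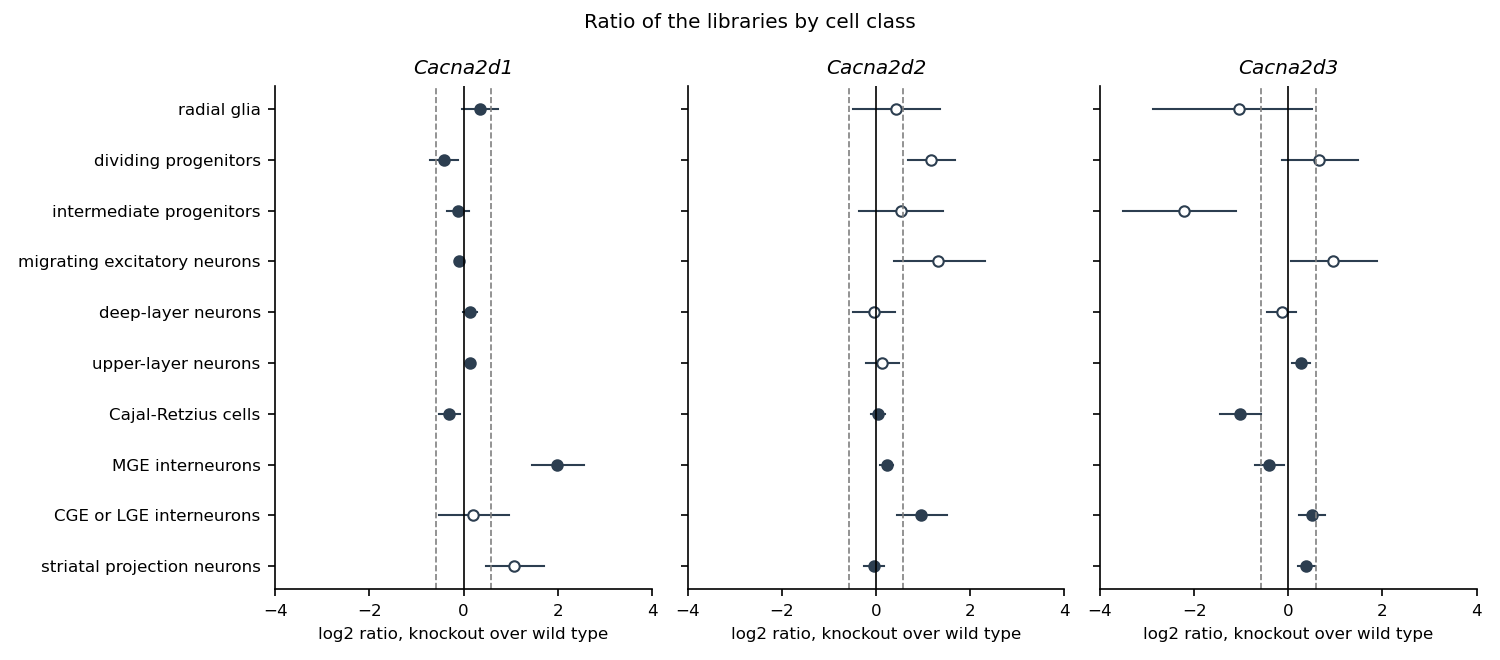
Log2 ratio (library labelled Cyfip2 knockout over library labelled wild type) for each alpha2delta gene in 10 cell classes, with exact 95% intervals (counting error only). Filled points are levels that met the minimum, open points lie below it, and dashed lines mark a log2 ratio of 0.58 in either direction; Cacna2d1 in MGE interneurons (1.99), Cacna2d2 in CGE or LGE interneurons (0.97) and Cacna2d3 in Cajal-Retzius cells (-1.02) are filled and past the lines.

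In striatal projection neurons the class hid opposite values of Cacna2d3. The Isl1 and Zfp503 cluster had 131 and 86.2 CPM, a log2 ratio of 0.61 (0.31 to 0.92), called higher beside 2.97% of 6366 measured genes. The Ebf1 and Tac1 cluster had 25.9 and 40.2 CPM, a log2 ratio of -0.63 (-1.06 to -0.21), called lower beside 0.944% of 6566 genes. The Penk and Drd2 cluster had 87.1 and 71.9 CPM, a log2 ratio of 0.28 (0.00 to 0.55). The first of these clusters held 598 of 1584 knockout-labelled and 192 of 822 wild-type striatal neurons, and the class as a whole had a log2 ratio of 0.38 (0.21 to 0.56).

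Among cells not yet neurons, Cacna2d2 was called higher in cluster 16, the larger cluster of dividing progenitors, with 126 UMIs (20.7 CPM) in the knockout-labelled library and 46 UMIs (10.5 CPM) in the wild-type library. The log2 ratio was 0.97 (0.48 to 1.49), beside 0.676% of 6505 measured genes. Over all dividing progenitors it was 1.16 (0.67 to 1.67), from 15.8 and 7.07 CPM, past the size limit but below the minimum level. All 8 GABAergic markers were higher in knockout-labelled progenitors, with summed levels of 1015 and 671 CPM, and in dividing progenitors the sums were 1944 and 1608 CPM. Their part in the result was not tested. In the dividing cells Cacna2d1 was at 23.2 and 31.0 CPM, a log2 ratio of -0.41 (-0.70 to -0.12). The class is mixed, with 63.5 and 66.1 CPM of Cacna2d1 in cluster 10 (135 and 139 cells). Cluster 16 (466 and 274 cells) had 9.19 and 11.5 CPM. With equal cluster weights the log2 ratio of Cacna2d1 was -0.094, and the part of the cluster mix was not tested.

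Over the 24 clusters with at least 50 cells in each library, Cacna2d1 was higher in the knockout-labelled library in 14 and lower in 10, Cacna2d2 higher in 18 and lower in 6, and Cacna2d3 higher in 12 and lower in 12. The Cajal-Retzius cluster is not among these clusters. Levels of Cacna2d1 in upper-layer neurons, where the gene was counted most, gave a log2 ratio of 0.14 (0.07 to 0.21).

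The alpha2delta subunits work beside a pore-forming and a beta subunit. Of 10 genes for pore-forming calcium channel subunits, 6 were measured in excitatory and 6 in GABAergic neurons, and none was called in either, in all cells or in progenitors. Their median log2 ratio was 0.03 in excitatory and 0.04 in GABAergic neurons, against -0.02 and -0.01 over all measured genes. None of the beta or gamma subunit genes was called in any family. Over 76 listed genes of the channel, its partners, the presynaptic active zone, Rac signalling and other calcium handling, 48 were measured in all cells and none was called, with a median log2 ratio of -0.01, against -0.02 over all measured genes.

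Of the listed genes, 1 of 49 measured in GABAergic neurons and 2 of 28 measured in progenitors were past the size rule, beside 0.6% and 0.929% of all measured genes in those families. They were partners or Rac signalling genes. Thbs1, one of the thrombospondins, a family that binds the Cacna2d1 product, was lower in knockout-labelled GABAergic neurons, at 25.5 CPM, against 40.7 CPM in wild-type ones, a log2 ratio of -0.67 (-0.84 to -0.51). In progenitors, the presynaptic adhesion gene Nrxn3 had 244 and 147 CPM, a log2 ratio of 0.73 (0.66 to 0.80), and Tiam2, an activator of Rac, had 53.0 and 35.1 CPM, a log2 ratio of 0.60 (0.44 to 0.75). With equal cluster weights these ratios were -0.22, 0.26 and 0.15, all below the size of a call.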

How the data were processed

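The authors deposited raw UMI counts per gene and droplet barcode for 1 library per genotype, with other files that list gene names and barcodes. Per the file headers the program was Cell Ranger 4, and per the submitters' processing notes the genome was mm10. Not given in the sources used here are the annotation release, the strand setting and the full kit name. Barcodes were called cells when they held 1000 or more UMIs, 500 or more genes and no more than 10% mitochondrial UMIs (12855 knockout-labelled and 9086 wild-type). Scrublet doublet scores removed the highest 0.8% per 1000 called cells, 1322 and 660 cells, which left 109658573 and 97339123 UMIs. Log-normalised values of 2000 variable genes gave 30 principal components and 29 Leiden clusters (resolution 1, 15 neighbours, scanpy 1.11.5), which were not aligned between libraries. Clusters were named from marker lists, by a rule set after the clusters had been seen; 2 clusters were left unnamed. The values of 1 unnamed cluster are not reported here.

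UMIs were summed per library and class. Levels have exact Poisson intervals, shares exact binomial intervals, and ratios exact conditional intervals (95%), which cover counting error only. Free RNA was profiled from barcodes under 100 UMIs. The statistics were checked on simulated counts. The members and gene lists were chosen with earlier results of these data known. Named are the 3 members, Cacna2d4, Cyfip2, listed genes past the size rule in a family (up to 4 per list), and the 5 genes most correlated with each member. Cluster leading genes and genes overlapping a member are named to identify them. Alternatives covered scaling, doublets, cell filters, clustering, cluster weights, free RNA and shared barcodes. Tools were numpy 2.4.6, scipy 1.17.1, pandas 2.3.3, scikit-learn 1.9.0, python-igraph 0.11.9 and matplotlib 3.10.9.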

Additional observations from a re-analysis of the deposited data

Results flagged for a closer look

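The log2 ratios (knockout-labelled over wild type) had intervals on opposite sides of 0 in different families for 2 members, and none of these differences was tested. For Cacna2d1, the ratio in excitatory neurons (0.05) exceeded that in progenitors (-0.17) by 0.21, and the ratio in GABAergic neurons (1.33, from a level below the minimum) exceeded that in progenitors by 1.49. For Cacna2d3, the ratio in GABAergic neurons (0.29) exceeded that in excitatory neurons (-0.13, below the minimum level) by 0.42. For Cacna2d3 the signs were no longer opposite with equal cluster weights, where its excitatory ratio was 0.062. Without clusters of uneven share its GABAergic ratio was 0.083. For Cacna2d1 the signs stayed opposite with equal weights, at 0.055 in excitatory neurons, 0.85 in GABAergic neurons and -0.046 in progenitors.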

How the results depend on the processing

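No paired analysis was possible because each genotype has 1 library. For the 26 main results, 158 of 185 alternative values stayed within their interval or within 1.5 times a count, and 27 moved. None of the log2 ratios among these results was called, and a change of sign was counted only for called values. Some signs did turn, as for Cacna2d3 in progenitors, at -0.50 in the main setting and 0.58 with no doublets left out. With equal cluster weights, log2 ratios over all cells were 0.013 for Cacna2d1, 0.086 for Cacna2d2 and -0.0023 for Cacna2d3, that of Cacna2d3 in excitatory neurons was 0.062, and those of Cacna2d1 and Cacna2d2 in GABAergic neurons were 0.85 and -0.0035. Cacna2d1 in GABAergic neurons had 3.79 with free RNA subtracted, 0.42 with no doublets left out and 0.93 without cluster 2. Cacna2d3 had 0.072 in all cells and 0.083 in GABAergic neurons without clusters of uneven share, 0.45 in GABAergic neurons without cluster 2, and in progenitors 0.58 with no doublets left out and 0.33 with at least 2000 UMIs. Cacna2d1 in all cells had -0.089 with at most 5% mitochondrial UMIs. At resolution 2, upper-layer neurons had 340 and 317 CPM of Cacna2d1, and with no doublets left out knockout-labelled Cajal-Retzius cells had 741 CPM of Cacna2d2. The ratio of shares of GABAergic cells with Cacna2d2 was 1.06 at 3000 UMIs. Genes past the size rule in all cells, excitatory neurons, GABAergic neurons and progenitors numbered 40, 16, 41 and 64, against 1082, 585, 623 and 876 with no filter on low counts and 9, 8, 23 and 25 with equal cluster weights. Of the progenitor calls 39.1% were higher, and 50% with median-of-ratios scaling. Leaving out cluster 2 and the clusters of uneven share was chosen after seeing the data, as was clustering without the 3 genes. Of 354 alternative values for other results, 28 moved; Cacna2d1 in MGE interneurons ranged from 0.36 to 5.24. The causes were not tested.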
